A study of Mus musculus with 12 samples.

Results

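Total RNA of bone marrow derived macrophages after 270 min of lipopolysaccharide (LPS) was compared with total RNA after 45 min of LPS. The comparison rests on 4 of the 12 arrays of the study, 2 at 270 min and 2 at 45 min, chosen by their labels and paired by experiment number. All cells were C3H/HeN macrophages, grown from marrow for 17 days with interleukin-3, interleukin-6, stem cell factor and L-cell conditioned medium, which supplies macrophage colony stimulating factor. The cytokines and then the conditioned medium were left out before stimulation. LPS was given at 100 ng/ml for 270 min or for 45 min, and another pair of cultures was left unstimulated. Every culture, unstimulated ones included, received 200 µM 4-thiouridine for its last 35 min, and the RNA labelled in that window was purified as nascent RNA and hybridised to arrays of its own. Genotype, age and number of mice are not stated in the labels. The 2 arrays of a time came from independent experiments. The p-values rest on the spread left over all 6 groups after experiment number was fitted as a block, shared in part over genes. They do not measure the full spread between experiments at these 2 times.

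LPS, an outer membrane component of Gram-negative bacteria, is sensed by Toll-like receptor 4 through MyD88 and TRIF. Both adaptors activate NF-kB and MAP kinases, which switch on immediate early genes and inflammatory cytokines within the first hour. TRIF also activates IRF3, which induces interferon beta. Secreted interferon then acts on the same cells through its receptor and induces antiviral genes, so the later hours of the response hold a secondary wave of transcription. Total RNA also keeps what was made earlier and has not yet decayed.

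All values are log2 intensities, each 1 probe set per gene, and a difference is the 270 min mean minus the 45 min mean (n = 2 each) with the standard error (SE) from limma. A gene was called when its p-value, adjusted by Benjamini-Hochberg over 19938 genes, was below 0.05. The 2 arrays of 270 min were correlated across genes at r = 0.9806 and the 2 of 45 min at r = 0.9836, and the differences of the 2 experiments at r = 0.806. The 270 min array of experiment 2 had the narrowest spread of values, with an interquartile range of 2.322, against 2.733 in the other 270 min array and 2.839 and 3.016 in the 45 min arrays. The 95th percentile of 1027 olfactory receptor genes, taken as a background level, was also highest on that array among the 4 (6.72, with 6.18 to 6.24 on the others). Where both arrays of the dimmer time lay under it, the fold is a lower bound against that level ("at least"). At both times 7442 genes lay under it. All 12 macrophage markers were above it on the 4 arrays, with summed intensities of 57574 and 46020 at 270 min and of 62715 and 57231 at 45 min. In these bulk samples fewer cells of a type and less RNA per cell cannot be told apart.

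At 270 min 1711 genes (8.58% of those tested) were called higher than at 45 min and 2884 genes (14.5%) lower. Every list count given below is to be read against these shares of all genes. Of the called genes, 727 were at least 2-fold higher (3.65%) and 1292 at least 2-fold lower (6.48%). None of the called genes had opposite signs in the 2 experiments, which follows largely from the call, since it rests on the mean of these same differences. Without the experiment number as a block 1324 genes were higher (6.64%) and 2302 lower (11.5%). The number of higher genes was 1115 without the 45 min array of experiment 1, and the number of lower genes was 1710 without the 270 min array of experiment 2 and 1752 without the 45 min array of experiment 2. By comparison 181 genes (0.908%) were higher and 17 (0.0853%) lower at 45 min than in unstimulated cells, a comparison that shares the 45 min arrays.

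The largest rise was that of Il6, which encodes the inflammatory cytokine interleukin-6. It had log2 intensities of 12.62 and 12.76 at 270 min, against 5.39 and 5.87 at 45 min, a difference of 7.06 ± 0.24 (at least 91-fold, adjusted p = 1.2e-10). Both 45 min arrays were under the background level. Edn1, the gene of the vasoconstrictor peptide endothelin-1, had 12.4 and 12.16 at 270 min, against 6.03 and 6.25 at 45 min, a difference of 6.14 ± 0.23. Iigp1, an immunity-related GTPase that acts on the vacuoles of intracellular pathogens, had 11.24 and 11.48 at 270 min, against 4.85 and 5.88 at 45 min (6 ± 0.21, at least 36.1-fold). These genes were chosen for their large rises, so the times were far apart. The widest gap between experiments was that of Iigp1 at 45 min.

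Nos2, the inducible nitric oxide synthase, had 11.84 and 11.58 at 270 min, against 5.98 and 5.97 at 45 min, a difference of 5.73 ± 0.18 (at least 45.9-fold, adjusted p = 9.29e-11). Il12b, the p40 subunit of interleukin-12 and interleukin-23, had 12.26 and 12.09 at 270 min, against 6.33 and 6.79 at 45 min. Ccnd2, the gene of the G1 cyclin D2, had 11.91 and 11.6 at 270 min, against 6.62 and 6.53 at 45 min, a difference of 5.18 ± 0.20 (36.2-fold). These genes were thus near background at 45 min and among the brighter genes at 270 min. The other genes among the 14 largest rises were the antiviral genes Mx1, Rsad2 and Cmpk2, the guanylate binding protein Gbp4, the interferon-inducible genes Ifi205 and Ifi214, the neutrophil chemokine Cxcl3 and the TNF superfamily ligand Tnfsf15. Their differences lay between 4.85 for Tnfsf15 and 5.73 for Mx1. In all, 39 genes were higher by more than 4 on the log2 scale.

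The largest fall was that of Egr1, a zinc finger transcription factor of the immediate early class. It had 6.35 and 6.36 at 270 min, against 11.19 and 11.2 at 45 min, a difference of -4.84 ± 0.23 (adjusted p = 1.25e-09). Its unstimulated arrays read 6.34 and 6.61, so the level at 270 min was back in that range. Slc40a1, the gene of the iron exporter ferroportin, had 5.39 and 5.9 at 270 min, against 9.93 and 9.84 at 45 min, a difference of -4.24 ± 0.29 (at least 10.6-fold lower). Its unstimulated arrays read 10.17 and 9.91, close to the 45 min arrays. Egr1 and Slc40a1 thus show the 2 courses seen among the 14 largest falls. Egr1, Fos (-3.36 ± 0.26) and Egr2 (-3.34 ± 0.20) had risen by 45 min, with calls against unstimulated cells, whereas the other 11 were not called between 45 min and unstimulated cells.

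Those 11 include Cxcr4, the receptor for the chemokine CXCL12, with 8.41 and 8.4 at 270 min, against 12.38 and 12.22 at 45 min (-3.9 ± 0.16, 14.9-fold lower, adjusted p = 2.85e-10). Cd300lb, an activating receptor of myeloid cells, differed by -4.01 ± 0.30 (at least 14.3-fold lower), and Pdcd4, which inhibits translation, by -3.72 ± 0.24 (at least 7.49-fold lower). Rab7b, a small GTPase of the late endosome, differed by -3.85 ± 0.23, and Cnr2, the cannabinoid receptor CB2, by -3.33 ± 0.29 (at least 3.56-fold lower). Tcp11l2, Rassf3, Lhfpl2, Mtss1 and Otulinl differed by -3.86, -3.61, -3.49, -3.45 and -3.32. In all of these genes both 270 min arrays lay below both 45 min arrays, which follows largely from their choice as the largest called falls. There were 29 genes that were lower by more than 3 on the log2 scale.

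**Figure D1:**
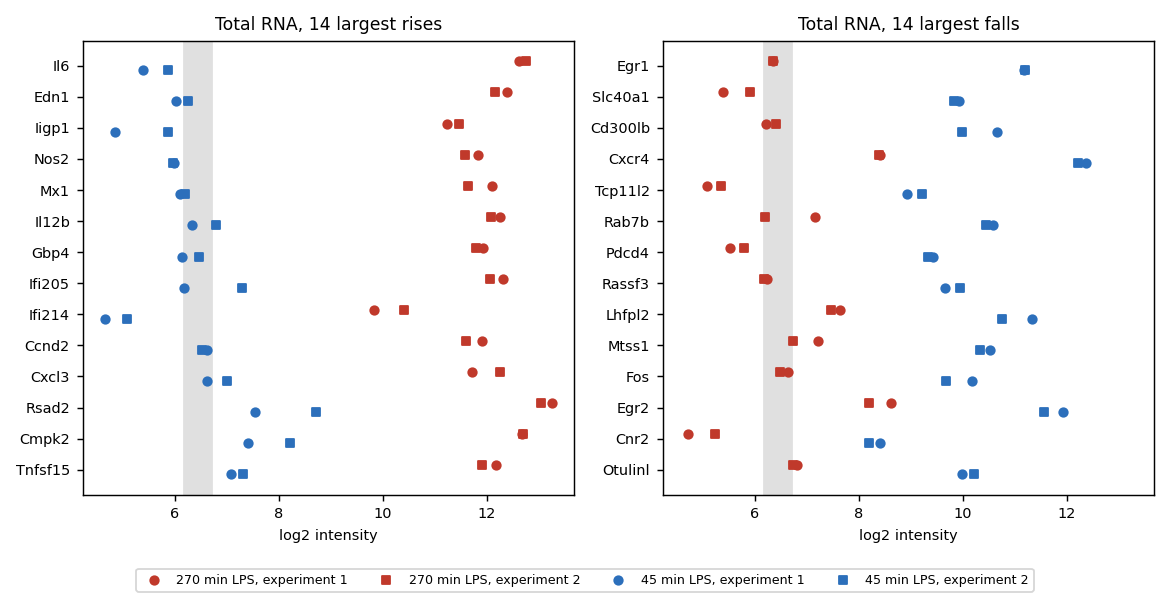
Log2 intensity in total RNA (x axis) of 28 genes, namely the 14 largest rises and the 14 largest falls at 270 min relative to 45 min of LPS, 1 row per gene. Red points are 270 min and blue points 45 min, circles are experiment 1 and squares experiment 2. The grey band spans the background levels of the 4 arrays (6.18 to 6.72). In each gene the points of the 2 times do not overlap, which follows largely from the choice of the largest called changes. Il6 is at 12.62 and 12.76 against 5.39 and 5.87, and Egr1 at 6.35 and 6.36 against 11.19 and 11.2.

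Antiviral interferon-stimulated genes, whose products block steps of viral replication or sense viral RNA, were all higher at 270 min. All 26 tested genes of the 28 listed were called higher, against 8.58% of all genes, with a median difference of 2.82, against 0.08 over all genes. In total RNA at 45 min 0 of the 26 had been called higher than in unstimulated cells, with a median difference of 0.13. In nascent RNA at 45 min Rsad2 (1.35) and Ifit2 (1.4) were already called higher than in unstimulated cells, while Mx1 and Cmpk2 were not called. Without the block 26 were still called higher in total RNA at 270 min than at 45 min. Ifit1, which binds viral RNA that lacks the host's cap methylation, had 13.07 and 13.01 at 270 min, against 7.83 and 9.3 at 45 min, a difference of 4.48 ± 0.34 (adjusted p = 1.69e-07). Mx1, a dynamin-like GTPase, had 12.1 and 11.65 at 270 min, against 6.1 and 6.19 at 45 min (5.73 ± 0.22), and Rsad2, the radical SAM enzyme viperin, 13.26 and 13.05, against 7.55 and 8.72 (5.02 ± 0.26). The smallest difference of the list was that of Bst2, the virion-retaining protein tetherin, at 1.62 ± 0.19 (adjusted p = 1.36e-05). At 45 min Ifit1, Ifit3 and Rsad2 were higher in experiment 2 than in experiment 1 by more than 1 on the log2 scale, while at 270 min the experiments lay much closer together in these genes. Ifit1 and Ifit3 were likewise higher in experiment 2 in unstimulated cells, and the part of this in the result was not tested.

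Guanylate binding proteins and immunity-related GTPases, interferon-inducible proteins that attack pathogen vacuoles, gave 8 of 8 tested members higher, of 14 listed. The median difference was 3.5. At 45 min 2 of the 8 had been called higher than in unstimulated cells, with Gbp3 higher by 1.44. Gbp4 had 11.93 and 11.8 at 270 min, against 6.14 and 6.47 at 45 min (5.56 ± 0.20), and Gbp3 12.57 and 12.23, against 8.18 and 8.84 (3.89 ± 0.22). Gbp7 differed by 3.7 ± 0.19. Members of this family have similar sequences, so probe sets may share signal between them. Of the 18 tested interferon regulatory factors, STATs and their SOCS feedback inhibitors, 12 were higher and 1, Irf4, was lower. Stat2, a subunit of the interferon-activated complex ISGF3, had 11.41 and 10.9 at 270 min, against 8.09 and 8.06 at 45 min (3.08 ± 0.22), and Irf7, which amplifies type I interferon production, 11.94 and 11.69, against 8.7 and 9.42 (2.75 ± 0.32). Cish (2.96 ± 0.20) and Stat5a (2.0 ± 0.18) were higher too. Without the 45 min array of experiment 2 only 7 members were higher, and without the 270 min array of experiment 1, 2 were lower. Irf1 and Socs3, chosen after their values were seen, were not called between the times: Irf1 had 12.18 and 11.45 at 270 min and 12.46 and 12.05 at 45 min, over a mean of 9.24 in unstimulated cells.

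The interferon-stimulated response element (ISRE), the DNA motif bound by ISGF3 and IRF proteins, was searched in the 250 bases before the annotated start of each gene that matched a promoter in RefSeq (GRCm38.p6). The letters were TTTC, 2 bases of any kind and TTTC again, or, on the other strand, GAAA, 2 bases of any kind and GAAA. A gene was counted when any of its listed promoters held the motif. It was present in 10.8% of 567 genes at least 2-fold higher at 270 min and in 2.24% of 1072 genes at least 2-fold lower. Of all 15614 tested genes that matched, 3.4% held it. Of the 18 antiviral genes that matched, 7 held it. The AP-1 motif TGANTCA was present in 7.76% of the genes at least 2-fold higher, in 5.97% of those at least 2-fold lower and in 7.12% of all tested ones. The NF-kB consensus was present in 13.1%, 10.4% and 9.49% of the same sets. A match is a string of letters and not a measured site.

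The promoters of Ifit1, Rsad2, Cxcl10 and Il6 are shown because these genes rose by 3.22 to 7.06 and hold different sets of these motifs, which are in capitals. Each is the 250 bases before the start of the gene, 5′ to 3′ on the gene's strand. Ifit1 lies at chr19:34640639-34640888 on the plus strand, Rsad2 at chr12:26456453-26456702 on the minus strand, Cxcl10 at chr5:92348890-92349139 on the minus strand and Il6 at chr5:30012864-30013113 on the plus strand.
Ifit1 (ISRE at -104 and -85): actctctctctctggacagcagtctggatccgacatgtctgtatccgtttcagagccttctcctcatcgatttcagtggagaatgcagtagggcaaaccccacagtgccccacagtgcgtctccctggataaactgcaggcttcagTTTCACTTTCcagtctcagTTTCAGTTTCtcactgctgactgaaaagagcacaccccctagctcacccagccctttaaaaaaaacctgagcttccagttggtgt
Rsad2 (ISRE at -120, AP-1 at -87): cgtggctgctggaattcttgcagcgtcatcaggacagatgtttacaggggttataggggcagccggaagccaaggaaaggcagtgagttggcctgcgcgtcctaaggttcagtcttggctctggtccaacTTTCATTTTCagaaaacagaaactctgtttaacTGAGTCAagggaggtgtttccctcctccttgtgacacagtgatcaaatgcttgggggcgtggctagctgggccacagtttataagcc
Cxcl10 (ISRE at -213, NF-kB at -159 and, overlapping, at -104 and -103, AP-1 at -74): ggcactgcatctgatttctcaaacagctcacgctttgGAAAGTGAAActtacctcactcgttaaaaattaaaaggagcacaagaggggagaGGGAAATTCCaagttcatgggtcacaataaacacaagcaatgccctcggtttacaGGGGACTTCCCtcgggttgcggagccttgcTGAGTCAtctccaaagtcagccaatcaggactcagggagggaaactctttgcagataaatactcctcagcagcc
Il6 (AP-1 at -249, NF-kB at -44): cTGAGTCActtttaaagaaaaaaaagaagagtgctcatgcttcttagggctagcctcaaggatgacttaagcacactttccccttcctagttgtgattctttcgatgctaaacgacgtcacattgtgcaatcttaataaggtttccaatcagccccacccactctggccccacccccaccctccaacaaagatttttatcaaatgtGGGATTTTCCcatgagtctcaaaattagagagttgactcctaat

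Immediate early regulators, which need no new protein for their induction, were mostly lower at 270 min. Of the 24 tested, 14 were lower (14.5% of all genes were) and 1, the nuclear receptor gene Nr4a3, was higher, with a median difference of -0.86. At 45 min 14 of the 24 had been higher than in unstimulated cells. Jun, a subunit of AP-1, had 8.38 and 7.55 at 270 min, against 11.54 and 10.82 at 45 min (-3.22 ± 0.21, adjusted p = 4.03e-08), and lay below its unstimulated values of 10.89 and 9.95. Nr4a3 had 8.5 and 9.51 at 270 min, against 5.72 and 6.45 at 45 min (2.92 ± 0.25). Klf6, Gadd45b and Myc were not called between the times and remained above the unstimulated mean at 270 min, with Myc at 7.79 and 8.18 at 270 min, 7.33 and 8.38 at 45 min and a mean of 6.83 in unstimulated cells. The number of lower members was 12 without the block and between 10 and 13 when 1 array was left out.

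**Figure D2:**
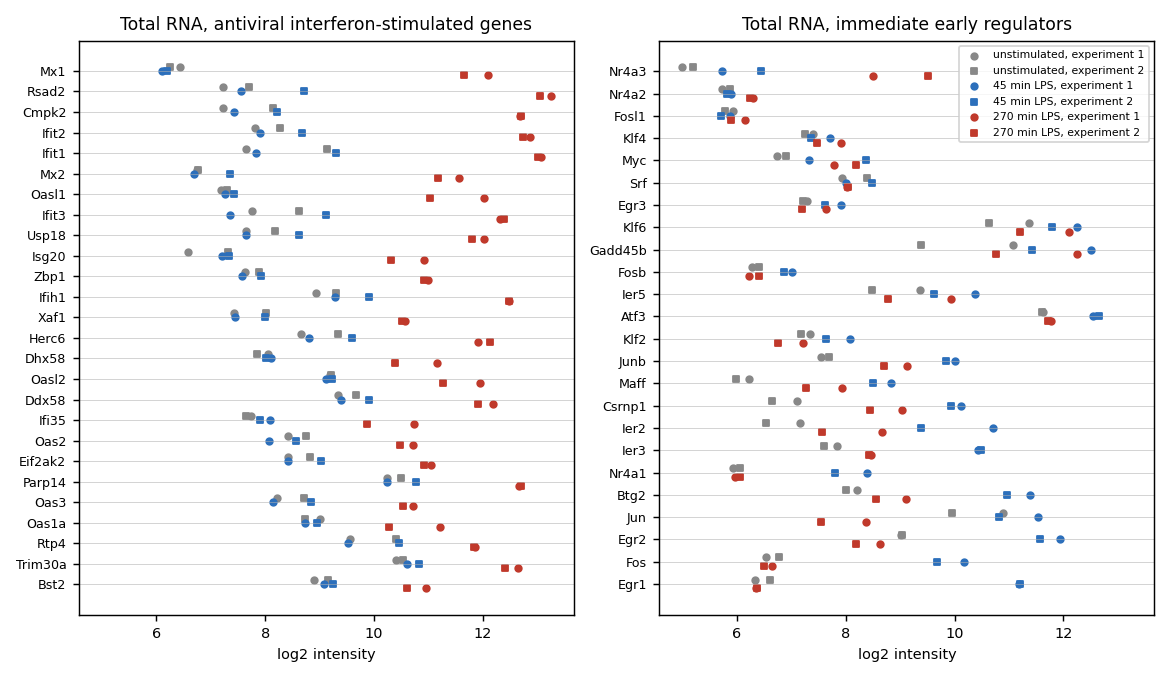
Log2 intensity in total RNA (x axis) of the 26 antiviral interferon-stimulated genes (left) and the 24 immediate early regulators (right), 1 row per gene in order of the difference between 270 and 45 min. Grey, blue and red points are unstimulated cells, 45 min and 270 min, circles are experiment 1 and squares experiment 2; the antiviral genes are brightest at 270 min, with Mx1 at 12.1 and 11.65, while Egr1, Fos and Egr2 stand out at 45 min.

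Dual specificity phosphatases, which switch off MAP kinases, had 7 of 12 members lower and 1, Dusp16, higher. Dusp1, which acts on p38 and JNK, had 9.94 and 9.45 at 270 min, against 13.22 and 12.57 at 45 min, a difference of -3.2 ± 0.22 (9.22-fold lower, adjusted p = 5.38e-08). Dusp2 differed by -1.46 ± 0.30 but remained above its unstimulated arrays, with 9.42 and 9.06 at 270 min, 10.89 and 10.5 at 45 min and 7.24 and 7.13 in unstimulated cells; its adjusted p was 0.0502 without the 45 min array of experiment 1. Dusp16 had 10.04 and 9.79 at 270 min, against 8.21 and 8.76 at 45 min (1.43 ± 0.20). Without the 270 min array of experiment 1, 2 members of the list were higher. Of the 12 tested mRNA decay factors 3 were lower, against 14.5% of all genes, and 9 were not called, with a median difference of 0.17. The 3 were the family of genes for AU-rich element binding proteins Zfp36l1 (-3.31 ± 0.20), Zfp36, which encodes tristetraprolin (-1.75 ± 0.22), and Zfp36l2 (-1.35 ± 0.17). Zfp36l1 had 6.26 and 6.53 at 270 min, against 9.74 and 9.67 at 45 min, and 9.21 and 9.19 in unstimulated cells.

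NF-kB subunits and their feedback inhibitors were divided. Of 17 tested, 5 were higher and 2 lower, against 8.58% and 14.5% of all genes, and 11 had already been higher at 45 min than in unstimulated cells. Nfkb2, which encodes the p100 precursor of p52, had 11.6 and 11.55 at 270 min, against 9.82 and 9.75 at 45 min (1.79 ± 0.18), and Traf1, a signalling adaptor of TNF receptors, 10.79 and 10.45, against 8.53 and 8.73 (1.99 ± 0.24). Nfkbie, an inhibitor of NF-kB, differed by 1.13 ± 0.25, and Nfkbid, a nuclear member of the inhibitor family, by -1.63 ± 0.27. The number of lower members was 1 without the block and also without the 270 min array of experiment 2 or either 45 min array. Nfkbia, the gene of the main inhibitor of NF-kB, was named after its values were seen. It had 12.27 and 11.68 at 270 min and 12.71 and 12.41 at 45 min, over a mean of 9.17 in unstimulated cells (-0.59 ± 0.27, adjusted p = 0.136).

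Cytokine genes had 15 of 25 tested members higher at 270 min, 2 lower and a median difference of 1.75. Il12a, the p35 subunit of interleukin-12, had 10.7 and 10.39 at 270 min, against 5.94 and 5.67 at 45 min (4.74 ± 0.20, at least 20.5-fold), so both subunits of interleukin-12 were near background at 45 min and above 10 at 270 min. Tnfsf15 had 12.19 and 11.91 at 270 min, against 7.09 and 7.31 at 45 min (4.85 ± 0.19). The 2 lower members were Il10, an anti-inflammatory cytokine, and Tnfsf9, which encodes the partner of the T cell receptor 4-1BB. Il10 had 4.99 and 5.27 at 270 min, under the background level, against 6.88 and 8.04 at 45 min, with an unstimulated mean of 4.78. Tnfsf9 had 9.66 and 9.74 at 270 min, against 10.87 and 11.42 at 45 min, and 5.49 on average in unstimulated cells, so it stayed above that level. The counts of this list were 15 and 2 under no block as well.

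Tnf, Il1b and Ifnb1 are named for their place in the pathway, after their values were seen. Tnf, the gene of tumour necrosis factor, had 13.54 and 12.99 at 270 min and 13.24 and 13.09 at 45 min (0.1 ± 0.16, adjusted p = 0.695), over a mean of 7.89 in unstimulated cells, so the 2 times overlapped. Il1b, the gene of interleukin-1 beta, had 13.2 and 12.91 at 270 min, against 10.89 and 11.43 at 45 min (1.9 ± 0.21). Ifnb1, the gene of interferon beta, lay below background on all 4 arrays, so no difference is read from it.

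Chemokine genes had 13 of 22 tested members higher, 1 lower and a median difference of 1.6. Among those with the largest rise were Cxcl3 and the ligands of the receptor CXCR3 that draw activated T cells. Cxcl3 had 11.72 and 12.26 at 270 min, against 6.62 and 7 at 45 min (5.18 ± 0.20). Cxcl9 had 9.96 and 9.71 at 270 min, against 5.67 and 5.51 at 45 min (4.25 ± 0.20, at least 12.6-fold), and Cxcl11 8.58 and 9.94, against 5.68 and 5.61 (3.61 ± 0.28, at least 8.4-fold). Cxcl10, the third ligand, had 13.49 and 13.3 at 270 min, against 10 and 10.36 at 45 min (3.22 ± 0.19). Unlike the other ligands it had already been called higher at 45 min than in unstimulated cells, whose mean was 6.45; no test of this difference between the ligands was made. Ccl5, which attracts T cells and monocytes, differed by 3.37 ± 0.23.

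Some chemokines were already bright at 45 min and were not called between the times. Cxcl2, a neutrophil attractant, had 12.83 and 12.94 at 270 min and 12.52 and 12.96 at 45 min (0.15 ± 0.20, adjusted p = 0.652), and Cxcl1 had 11.88 and 11.55 at 270 min and 11.4 and 11.38 at 45 min (0.32 ± 0.17, adjusted p = 0.202). Ccl2, the main monocyte attractant, had 10.36 and 10.14 at 270 min and 9.52 and 10.14 at 45 min (0.42 ± 0.23, adjusted p = 0.222). The unstimulated means were 7.12 for Cxcl2, 6.3 for Cxcl1 and 6.11 for Ccl2. The lower member was Ccl6 (-0.58 ± 0.15), which was not called without the block; the count of lower chemokines was 0 without the 270 min or the 45 min array of experiment 2 and 2 without the 45 min array of experiment 1.

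Inflammatory effectors, enzymes and secreted proteins of activated macrophages, had 17 of 19 tested members higher and a median difference of 2.08, under no block as well. Mmp13, a collagenase, had 13.14 and 13.27 at 270 min, against 8.38 and 10 at 45 min (4.01 ± 0.29), and Lcn2, which binds bacterial siderophores, 9.65 and 9.18, against 6.14 and 6.27 (3.22 ± 0.21). Mmp13 at 45 min was higher in experiment 2, but both 270 min arrays lay far above it. Ptgs2, the inducible cyclooxygenase, had 13.17 and 13.02 at 270 min, against 10.82 and 11.2 at 45 min (2.08 ± 0.17). Arg2, a mitochondrial arginase, was the 1 lower member, with 7.01 and 6.39 at 270 min, against 8.29 and 8.38 at 45 min. The arginine transporter Slc7a2 was higher by 2.94 ± 0.18.

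**Figure D3:**
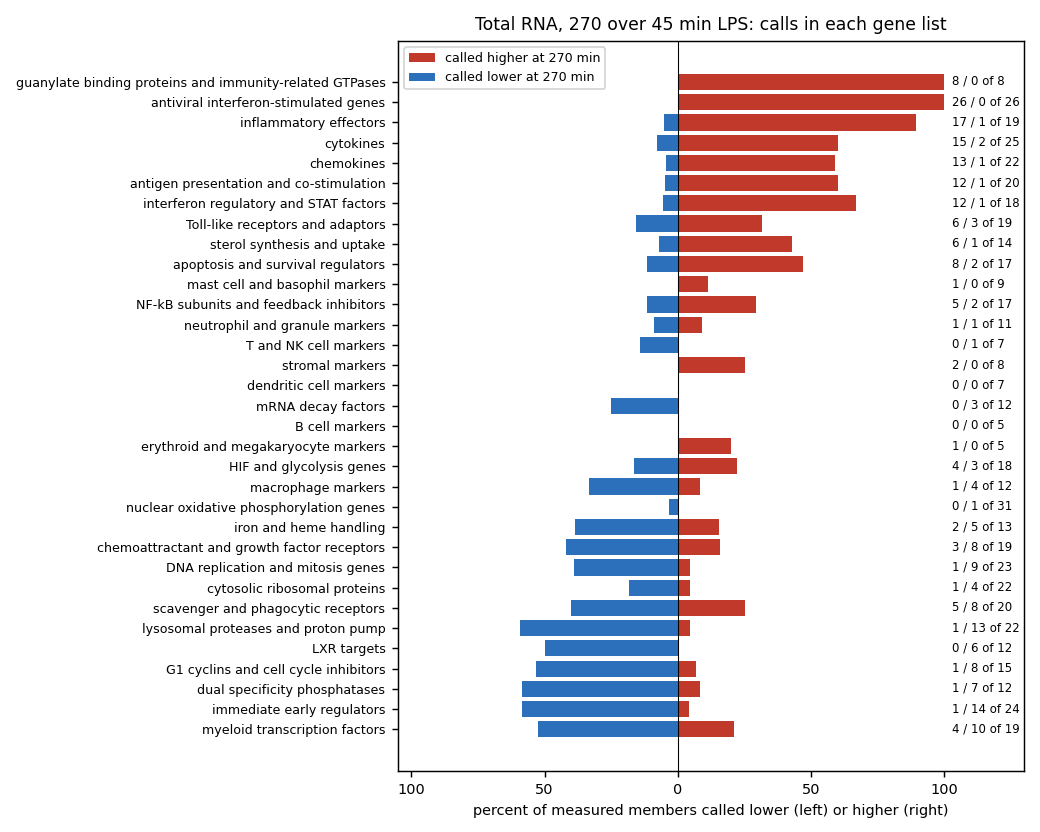
Percent of the measured members of each gene list (y axis) called higher (red, right) or lower (blue, left) in total RNA at 270 min than at 45 min of LPS, in order of the list's median difference; the figures at the right are members higher / members lower of members measured. The antiviral list (26 of 26) and the guanylate binding protein list (8 of 8) were called higher throughout, while 14 of 24 immediate early regulators and 13 of 22 lysosomal genes were called lower.

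Genes of antigen presentation and co-stimulation had 12 of 20 tested members higher and 1, Ciita, lower. Cd40, a receptor for T cell help, had 13 and 12.49 at 270 min, against 9.17 and 9.33 at 45 min (3.5 ± 0.19, adjusted p = 4.06e-09), and the activation marker Cd69 11.99 and 12.1, against 7.53 and 8.84 (3.86 ± 0.26). Tap1, the peptide transporter of MHC class I loading, differed by 2.83 ± 0.30 and the co-stimulatory ligand Cd86 by 1.92 ± 0.28. MHC class II genes, named after their values were seen, were not called. H2-Ab1 had 10.53 and 9.65 at 270 min and 10.33 and 9.79 at 45 min, and Cd74 12.11 and 11.59 at 270 min and 12.13 and 11.59 at 45 min. Ciita, the class II transactivator, had 7.04 and 6.68 at 270 min, against 7.84 and 7.31 at 45 min (-0.72 ± 0.18). The count of lower members was 0 without the block and also without the 270 min or the 45 min array of experiment 1.

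Among Toll-like receptors, their adaptors and Irak kinases 6 of 19 were higher and 3 lower, the lower share being close to the 14.5% of all genes. The receptor of bacterial ribosomal RNA, Tlr13, had 9.15 and 8.51 at 270 min, against 11.47 and 11.6 at 45 min (-2.71 ± 0.22), and Tlr4, the receptor of LPS itself, 9.3 and 8.9, against 10.09 and 10.37 (-1.13 ± 0.19, adjusted p = 0.000365). Tlr3, which senses double-stranded RNA, had 9.87 and 9.77 at 270 min, against 7.24 and 7.66 at 45 min (2.37 ± 0.20). Tlr1 (2.32 ± 0.19) and Tlr6 (1.53 ± 0.19), partners of Tlr2, were higher, while Tlr2 itself was not called (0.42 ± 0.17, adjusted p = 0.1).

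Chemoattractant and growth factor receptors had 8 of 19 members lower and 3 higher, and the 3 were 0 without the block or any of the 4 arrays. Besides Cxcr4, the lower ones included S1pr1, which guides cells along sphingosine-1-phosphate, with 7.29 and 7.3 at 270 min, against 10.15 and 10.16 at 45 min (-2.86 ± 0.17, adjusted p = 1.09e-08). Ccr2, the receptor of the monocyte chemokine CCL2, had 6.59 and 6.53 at 270 min, against 8.89 and 9.08 at 45 min (-2.43 ± 0.19), and the interferon gamma receptor gene Ifngr1 9.24 and 8.63, against 10.52 and 10.35 (-1.5 ± 0.22). The times did not overlap in these receptors, which were chosen as the called members with the largest changes.

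Myeloid transcription factors had 10 of 19 members lower and 4 higher, with a median difference of -1.08. Cebpa, a factor that drives myeloid differentiation, had 7.06 and 7.34 at 270 min, against 9.3 and 9.86 at 45 min (-2.38 ± 0.28). Bhlhe40 had 7.64 and 7.21 at 270 min, against 10.26 and 9.72 at 45 min (-2.57 ± 0.17), and its relative Bhlhe41 differed by -2.14 ± 0.20. Id3, an inhibitor of helix-loop-helix factors, had 6.01 and 5.55 at 270 min, against 8.24 and 7.42 at 45 min (-2.05 ± 0.32, at least 2.55-fold lower). Id3 had risen by 45 min over unstimulated arrays of 5.9 and 5.35, unlike the other 3. Spi1, the gene of the macrophage factor PU.1, had 11.47 and 10.77 at 270 min, against 10.69 and 9.81 at 45 min; its difference of 0.87 ± 0.18 was called only with the block (adjusted p = 0.00196, and 0.13 without it).

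Scavenger and phagocytic receptors had 8 of 20 members lower and 5 higher, against 14.5% and 8.58% of all genes. The lower count was 5 without the 270 min array of experiment 2 and 4 without the 45 min array of experiment 2, and the higher count was 3 without either array of experiment 1. Stab1, which clears modified lipoproteins, had 7.31 and 7.22 at 270 min, against 8.9 and 8.85 at 45 min (-1.61 ± 0.20), and Scarb1, the receptor of high density lipoprotein, 8.31 and 8.34, against 9.97 and 9.74 (-1.53 ± 0.18). The related receptors of apoptotic cells Axl and Mertk moved in opposite directions. Axl had 10.37 and 10.16 at 270 min, against 8.8 and 8.78 at 45 min (1.48 ± 0.18), and Mertk 9 and 9.21, against 10.22 and 10.37 (-1.19 ± 0.19).

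Targets of LXR, the nuclear receptor that is activated by oxysterols, had 6 of 12 tested members lower, 3 without the 270 min array of experiment 2, and 0 higher; the highest of the 12 differences was -0.13. Scd2, a fatty acid desaturase, had 6.2 and 6.35 at 270 min, against 8.84 and 8.48 at 45 min (-2.39 ± 0.28, at least 4.54-fold lower). The cholesterol exporter Abca1 had 10.51 and 9.99 at 270 min, against 11.8 and 11.49 at 45 min (-1.4 ± 0.14). Its partner Abcg1 differed by -1.17 ± 0.25 (adjusted p = 0.00289, and 0.0515 and 0.0535 without the 270 min array of experiment 2 and the 45 min array of experiment 1), and Scd1 by -1.11 ± 0.23. Genes of sterol synthesis and uptake had 6 of 14 members higher and 1 lower, against 8.58% and 14.5% of all genes. The higher count was smaller without either array of experiment 1, and the lower count larger without the 270 min array of experiment 1. Ch25h, which makes 25-hydroxycholesterol, had 9.34 and 10.16 at 270 min, against 5.99 and 6.8 at 45 min (3.35 ± 0.29), Idi1 differed by 1.33 ± 0.22 and Cyp51 by 1.23 ± 0.22. Dhcr7, the last enzyme of cholesterol synthesis, was lower (-1.47 ± 0.18).

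Genes of iron and heme handling had 5 of 13 members lower and 2 higher, against 14.5% and 8.58% of all genes. The higher count was smaller without the 270 min array of experiment 2 or either 45 min array. Beside Slc40a1, the heme oxygenase gene Hmox1 had 9.59 and 8.82 at 270 min, against 11.25 and 11.03 at 45 min (-1.94 ± 0.24), and the heme transporter Slc48a1 differed by -1.15 ± 0.21. Slc39a14, a metal importer, had 9.86 and 9.6 at 270 min, against 7.08 and 7.1 at 45 min (2.64 ± 0.18, adjusted p = 5.02e-08). Tfrc, the transferrin receptor that brings iron into cells, had 10.4 and 10.71 at 270 min, against 11.43 and 11.73 at 45 min (-1.03 ± 0.16), so these uptake genes moved in opposite directions. The second higher member, Hamp, was under the background level at both times.

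HIF and glycolysis genes had 4 of 18 members higher and 3 lower, against 8.58% and 14.5% of all genes, with a median difference of 0.01, and the lower count was 1 under no block, and also when the 270 min array of experiment 2 or either 45 min array was left out. Adm, the gene of the vasodilator adrenomedullin, had 8.12 and 7.65 at 270 min, against 6.17 and 6.43 at 45 min (1.59 ± 0.21), and the glycolytic phosphofructokinase Pfkp differed by 1.47 ± 0.19. Hif1a, the hypoxia-inducible factor, differed by 0.84 ± 0.18, and Vegfa, an angiogenic factor, by -1.28 ± 0.22. Nuclear genes of oxidative phosphorylation were mostly not called: 1 of 31 was lower, Atp5c1, at -0.55 ± 0.14, and its adjusted p of 0.0104 became 0.127 and 0.121 without the 270 min and the 45 min array of experiment 2. The lower count of this list was 6 without the 270 min array of experiment 1, 2 without the 45 min array of experiment 1, and 11 in a fit on the 6 total RNA arrays alone. Its median difference was -0.29.

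Cytosolic ribosomal protein genes had 4 of 22 tested members lower and 1 higher, near or under the 14.5% and 8.58% of all genes, and these counts rested on single arrays. The lower count was 0 without the 270 min or the 45 min array of experiment 2, 1 without the 45 min array of experiment 1 and 15 in the fit on the 6 total RNA arrays. Rpl10a, the largest difference of the list, was -0.75 ± 0.20 (adjusted p = 0.0118, and 0.174 without the 270 min array of experiment 2). Rpl22 (-0.62 ± 0.19), Rps18 (-0.53 ± 0.18) and the higher Rpl30 (0.64 ± 0.20) were not called without the block (adjusted p = 0.0696, 0.126 and 0.156). Without the 45 min array of experiment 2 the higher count stayed at 1, and without any of the other 3 arrays it was 0.

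Lysosomal proteases and subunits of the proton pump had 13 of 22 members lower and 1 higher, against 14.5% and 8.58% of all genes. The median difference was -0.52. Tfeb, the master regulator of lysosomal genes, had 6.91 and 6.63 at 270 min, against 8.65 and 8.38 at 45 min (-1.74 ± 0.22), and the proton pump subunit Atp6v0d2 11.26 and 11.13, against 12.77 and 12.74 (-1.56 ± 0.16, adjusted p = 2.6e-06). Ctsk, the gene of cathepsin K, differed by -0.96 ± 0.19, but its adjusted p was 0.0865 without the block. Ctsc, the gene of the cathepsin that activates granule proteases, was higher (1.03 ± 0.14). The lower count was 4 without the 270 min array of experiment 2, and 8 and 6 without the 45 min array of experiment 1 and of experiment 2. The other 19 tested members lay between -0.09 and -0.96, so only Tfeb, Atp6v0d2 and Ctsc differed by more than 1 on the log2 scale.

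Genes of DNA replication and mitosis had 9 of 23 tested members lower and 1 higher, against 14.5% and 8.58% of all genes. Of the 23, 5 lay under background at both times. The lower count was 2 without the 270 min array of experiment 2 and 5 without the 45 min array of experiment 2, and without that last array 2 were higher. Rrm1, a subunit of ribonucleotide reductase, had 7.7 and 7.12 at 270 min, against 8.87 and 9.06 at 45 min (-1.56 ± 0.24). The replicative helicase genes Mcm3 (-1.12 ± 0.25) and Mcm4 (-1.03 ± 0.22) were not called without the 270 min array of experiment 2 (adjusted p = 0.0792 and 0.0695). Tyms, the thymidylate synthase gene, had 7.36 and 7.4 at 270 min, against 6.31 and 6.4 at 45 min (1.03 ± 0.16).

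Of 15 G1 cyclins and cell cycle inhibitors, 8 were lower and 1, Ccnd2, was higher, against 14.5% and 8.58% of all genes. The lower count was smaller without either array of experiment 2. Sesn1, a stress-induced inhibitor of growth signalling, had 7.05 and 6.84 at 270 min, against 10 and 10.51 at 45 min (-3.31 ± 0.23), and the retinoblastoma family genes Rb1 and Rbl2 differed by -1.46 ± 0.21 and -1.46 ± 0.18. Regulators of cell death and survival had 8 of 17 members higher and 2 lower, against 8.58% and 14.5% of all genes. The lower count was smaller when the 270 min array of experiment 2 or either 45 min array was left out. Mlkl, the executioner of necroptosis, had 11.2 and 11.21 at 270 min, against 7.57 and 8.44 at 45 min (3.2 ± 0.23). Birc2 (1.5 ± 0.19), the inflammatory caspase Casp1 (1.39 ± 0.21) and the death receptor Fas (1.14 ± 0.22) were higher too.

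Of the macrophage markers 4 of 12 were lower and 1, Spi1, was higher, against 14.5% and 8.58% of all genes. The lower count was smaller without the 270 min array of experiment 2. Csf1r, the receptor of macrophage colony stimulating factor, had 12.11 and 11.63 at 270 min, against 12.81 and 12.47 at 45 min (-0.76 ± 0.16), and Lgals3 differed by -0.66 ± 0.15 (adjusted p = 0.00453, and 0.148 without the 270 min array of experiment 2). Markers of B cells were all under background at both times, as were 5 of 7 T and NK cell markers, 6 of 11 neutrophil markers, 3 of 7 dendritic cell markers, 2 of 9 mast cell and basophil markers, 2 of 5 erythroid and megakaryocyte markers and 4 of 8 stromal markers. None of the 7 dendritic cell markers was called (limma), and 1 was higher without the 270 min array of experiment 1; the integrin Itgax, which macrophages share, had 10.55 and 10.24 at 270 min and 10.33 and 10.09 at 45 min. Summed intensities of the mast cell and basophil list were 861 and 1789 at 270 min and 670 and 1980 at 45 min, higher in experiment 2 at both times, mostly through Mcpt8 and Cpa3, which were chosen after their values were seen. The part of these cells in the results was not tested.

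Called members of those lists were few. Kit, a receptor of mast cells and progenitors, differed by 0.71 ± 0.19 and was not called without the 270 min array of experiment 1 (adjusted p = 0.0914) or either 45 min array (0.101 and 0.0576). Mmp8 (-0.91 ± 0.18) was lower. S100a8 (0.83 ± 0.23) and the platelet chemokine Pf4 (1.13 ± 0.20) were higher, but not without the block (adjusted p = 0.067 and 0.0635), and S100a8 was not called when the second experiment's 270 min array or the first's 45 min array was left out (0.13 and 0.267); Cd2 (-0.75 ± 0.19) was not called without either array of experiment 2 (0.147 and 0.0954). Pdgfrb, a growth factor receptor counted among the stromal markers, had 9.44 and 9.6 at 270 min, against 5.95 and 6 at 45 min (3.55 ± 0.17, at least 10.1-fold, adjusted p = 1.47e-09). The other stromal marker called higher was Dcn, the gene of decorin, which lay under background on all 4 arrays (0.69 ± 0.15). The collagen genes Col1a1 and Col1a2, also stromal, were not called. Col1a1 had 7.27 and 7.6 at 270 min and 7.32 and 7.22 at 45 min, and Col1a2 7.17 and 7.29 at 270 min and 7.09 and 6.86 at 45 min.

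Entries for microRNA genes, small RNAs that repress mRNAs through a seed at bases 2 to 8, numbered 287, of which 173 were under background at both times. Of the 287, 32 were called higher and 6 lower, against 8.58% and 14.5% of all genes, and 13 of the 32 were under background at both times. Whether these signals come from the mature RNA or its longer precursor transcript was not tested. The mature forms of those described next are printed from RefSeq (GRCm38.p6), chosen after their values were seen, with the seed in capitals.
miR-155-5p: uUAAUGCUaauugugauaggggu
miR-146a-5p: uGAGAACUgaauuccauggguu
miR-17-5p: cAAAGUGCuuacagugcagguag
miR-20a-5p: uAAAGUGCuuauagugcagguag
miR-19a-3p: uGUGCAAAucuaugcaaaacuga
miR-19b-3p: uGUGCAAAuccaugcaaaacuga
miR-191-5p: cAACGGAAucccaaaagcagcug
miR-425-5p: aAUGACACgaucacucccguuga

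Mir155, whose microRNA is induced by LPS in macrophages and targets Socs1 among other genes, had 11.5 and 11.91 at 270 min, against 9.69 and 11 at 45 min (1.36 ± 0.26, adjusted p = 0.00112), over 5.68 and 5.6 in unstimulated cells. Mir146, which targets Irak1 and Traf6, had 8.95 and 8.49 at 270 min, against 7.75 and 8.22 at 45 min (0.74 ± 0.22, adjusted p = 0.0239, and 0.0576 without the block). Mir17, Mir20a, Mir19a and Mir19b-1 lie in 1 cluster on chromosome 14 and form pairs with shared seeds, AAAGUGC for Mir17 and Mir20a and GUGCAAA for Mir19a and Mir19b-1. The differences were 0.78 for Mir17, 1.08 for Mir20a, 0.8 for Mir19a and 1.18 for Mir19b-1. Without the block the adjusted p was 0.0442 for Mir17, 0.17 for Mir20a, 0.157 for Mir19a and 0.0939 for Mir19b-1, so that only Mir17 was still called. Mir191 and Mir425, neighbours on chromosome 9, were lower by -1.32 ± 0.21 and -1.06 ± 0.22. Mir191 had 7.16 and 6.99 at 270 min, against 8.44 and 8.35 at 45 min, and 7.02 and 6.99 in unstimulated cells, so it had returned to the unstimulated level.

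Nascent RNA of the same cultures shows what was transcribed in the last 35 min. In nascent RNA 1716 genes (8.61%) were called higher and 2398 (12%) lower at 270 min than at 45 min. Of the 1711 genes called higher in total RNA, 1038 were also called higher in nascent RNA, 17 lower and 656 were not called. Of the 2884 called lower in total RNA, 1712 were called lower in nascent RNA, 23 higher and 1149 were not called. The fractions of a culture come from the same cells, so the comparisons are not independent. That nascent and total arrays of the same experiment number come from the same culture was assumed. Tested as a difference of differences, the nascent response exceeded the total response in 825 genes (4.14%) and lay below it in 677 (3.4%), and in 281 and 358 genes without the block. The counts were 157 and 315 without the 270 min cultures of experiment 2, 299 and 295 without those of experiment 1, 1271 and 1239 without the 45 min cultures of experiment 1, and 279 and 647 without those of experiment 2.

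The largest such difference above 0 was that of Cd72, an inhibitory receptor of the C-type lectin family. In total RNA Cd72 had 10.49 and 10.42 at 270 min and 10.81 and 11.04 at 45 min and was not called (-0.47 ± 0.20, adjusted p = 0.105, and 0.0323 after quantile scaling), while its nascent RNA was higher by 2.87. Below 0, Ccl12, a monocyte chemokine, had 10.26 and 10.08 in total RNA at 270 min, against 6.65 and 7.6 at 45 min (3.05 ± 0.25, adjusted p = 3.07e-07), while its nascent RNA differed by -0.5 and was not called. Mrc1, the mannose receptor, had 10.29 and 10.16 in total RNA at 270 min, against 11.02 and 11.1 at 45 min (-0.84 ± 0.18, adjusted p = 0.0758 without the 45 min array of experiment 2), while its nascent RNA was lower by -4.33. Total RNA of Cd72 and Mrc1 thus moved little over a span in which nascent RNA moved by several log2 units.

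A called difference between the fractions, with the block, was part of the rule that chose the 40 genes called in opposite directions. It is thus no separate evidence for them. The difference was also called without the block. However, 19 of the 40 lost their total RNA call without the block, 5 of the 17 higher and 14 of the 23 lower in total RNA. Those named here were chosen after their values were seen, apart from Adm and Gatm. Among the 17 higher in total and lower in nascent RNA, Icam1, the leukocyte adhesion molecule, differed by 1.18 in total and by -0.81 in nascent RNA, Pdpn, the mucin-type protein podoplanin, by 1.03 and -1.8, Tgm2, a transglutaminase, by 0.71 and -1.69, and Adm by 1.59 and -0.66. The proteoglycan gene Srgn and the TNF-induced gene Tnfaip2 were in this set too. Without the block the total RNA adjusted p was 0.0756 for Tgm2 and 0.101 for Tnfaip2, while the other 4 of these 6 genes were still called. Among the 23 lower in total and higher in nascent RNA, Gatm, the first enzyme of creatine synthesis, differed by -0.66 and 1.41, Ppih, a spliceosomal cyclophilin, by -0.58 and 1.28, and Asnsd1 by -1.01 and 0.98. The total RNA call of Gatm was lost without any 1 of the 4 arrays (adjusted p = 0.07 to 0.142). This set held the ribosomal protein genes Rps4x and Rpl36a and the mitochondrial one Mrps15. Without the block the total RNA adjusted p was 0.165 for Ppih, 0.175 for Rps4x, 0.0585 for Rpl36a and 0.0595 for Mrps15. Of the oxidative phosphorylation list 12 of 31 had a nascent response above the total one, against 4.14% of all genes. Of the cytokine and chemokine lists 15 of 25 and 15 of 22 had one below it, against 3.4% of all genes. This was not particular to them. Inflammatory effectors had 10 of 19 below it, lysosomal genes 11 of 22, immediate early regulators 11 of 24 and NF-kB genes 9 of 17. The antiviral list had 2 of 26 and the oxidative phosphorylation list 0. These list counts were not rerun under the alternatives.

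**Figure D4:**
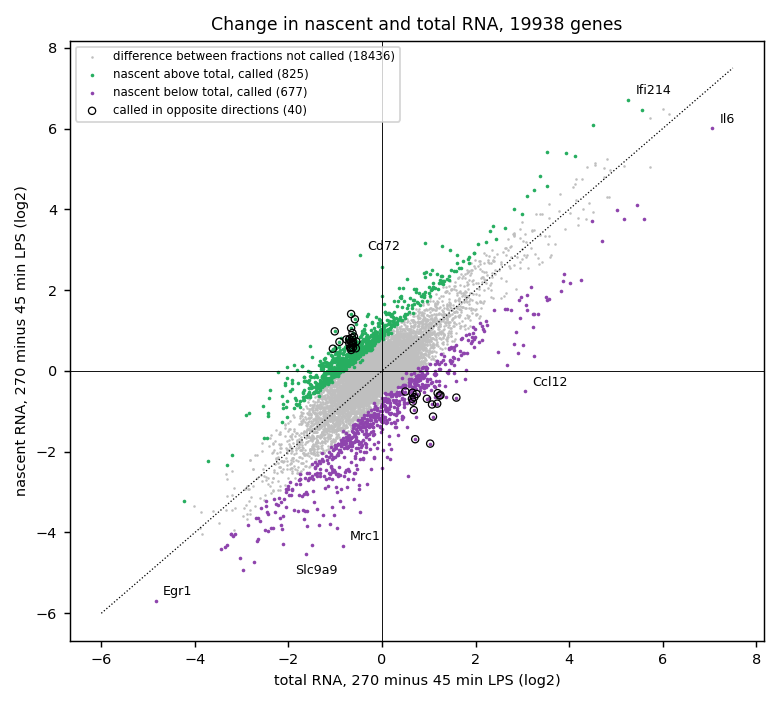
Difference between 270 and 45 min of LPS (log2) in total RNA (x axis) and nascent RNA (y axis), 1 point per gene. Green points are the 825 genes whose nascent response was above the total one, purple points the 677 below it, grey points the other genes, open circles the 40 genes called in opposite directions, and the dotted line marks equal differences; Cd72 lies high above the line and Ccl12 and Mrc1 far below it.

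Nascent RNA at 45 min was also set beside the later change of total RNA. At 45 min 844 genes (4.23%) were higher and 1838 (9.22%) lower in nascent RNA than in unstimulated cells. Of the 844, 262 (31%) were called higher in total RNA at 270 min than at 45 min, 148 (17.5%) lower and 434 were not called, with a median difference of 0.17. Of the 1838, 100 (5.44%) were called higher, 609 (33.1%) lower and 1129 were not called, with a median of -0.36. Over all genes 8.58% were higher and 14.5% lower. Nascent and total RNA at 45 min share cultures, and no test of these shares was made.

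**Figure D5:**
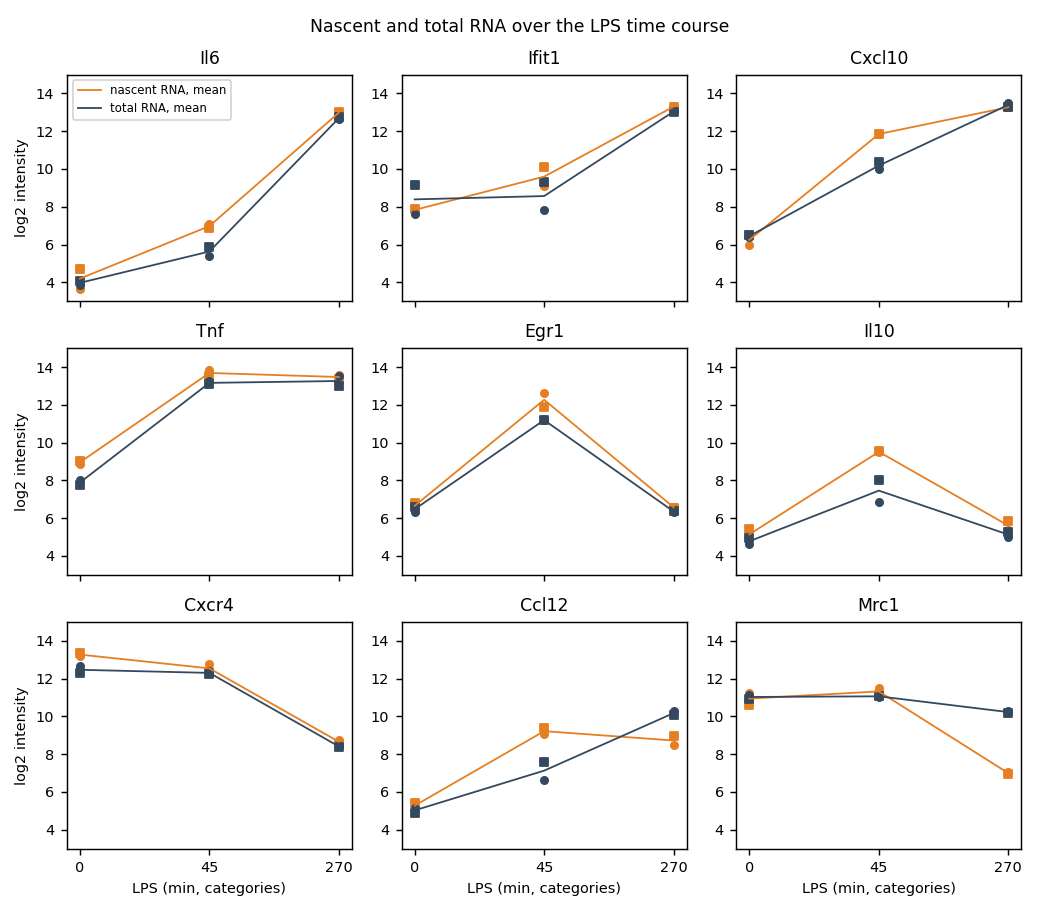
Log2 intensity (y axis) of 9 genes by min of LPS (x axis, as categories, 0 for unstimulated), in nascent (orange) and total RNA (dark blue). Circles are experiment 1, squares experiment 2 and lines join the means. Il6 and Ifit1 are highest at 270 min, and nascent RNA of both is already above its unstimulated values at 45 min. Tnf is high at both LPS times, and Egr1 and Il10 peak at 45 min. Total RNA of Cxcr4 is at 8.41 and 8.4 at 270 min. Total RNA of Ccl12 and Mrc1 departs from nascent RNA at 270 min.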

How the data were processed

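All 12 arrays (Affymetrix Mouse Gene ST 1.0) were used, 2 in each of 6 groups. The deposited values are linear intensities. Per the submitters' processing notes the authors used RMA and the Affymetrix Expression Console; the sources used here give no version. RMA compresses differences of dim genes and makes every change relative to the other genes of an array.
Log2 was taken. Of 35557 probe sets 21789 had 1 gene symbol, 1621 several and 12147 none in the annotation used; per symbol the probe set with the highest mean was kept, giving 19938 genes (999 had several). Groups and experiment number were fitted to all 12 arrays with limma 3.58.1 in R 4.3.3, with an intensity trend (residual degrees of freedom 5, prior 9.91). Experiment number is a block because the labels describe independent experiments; same-numbered arrays deviated together at r = -0.295 to 0.645 between groups (0.326 for the 2 groups compared). Response differences used nascent minus total per culture (residual degrees of freedom 2, prior infinite). Those p-values thus rest on a variance shared over genes and not on each gene's own spread. The fractions were matched by experiment number, which was assumed. Same-numbered nascent and total arrays deviated together at r = 0.419 at 270 min, 0.175 at 45 min and -0.0549 in unstimulated cells. The code was tested on simulated data. Sequences are RefSeq's (GRCm38.p6). Alternatives were no block, quantile scaling, a pseudocount of 16, a filter on dim genes, no trend, probe set means, fewer arrays and leaving out each array.
Members, the 33 gene lists and the rules were chosen with earlier results of these data known. Named genes are the 14 largest called rises and the 14 largest called falls (same sign in each experiment, brighter group's mean at or above 6.64), up to 4 called members per list (or the 2 brightest where none was called), and the 6 largest response differences each way. Chosen after their values were seen, outside that rule, were Ifit1, Ifit3, Bst2, Irf1, Irf4, Socs3, Cxcl1, Cxcl2, Cxcl10, Ccl2, Ccl6, Nr4a3, Klf6, Gadd45b, Myc, Dusp16, Nfkbia, Il10, Tnfsf9, Tnf, Il1b, Ifnb1, Ptgs2, Arg2, Slc7a2, Ciita, H2-Ab1, Cd74, Tlr2, Tlr4, Hamp, Mcpt8, Cpa3, Col1a1, Col1a2, Tfrc, Dcn, the microRNA entries and the genes given as called in opposite directions other than Adm and Gatm.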

Additional observations from a re-analysis of the deposited data

Results flagged for a closer look

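The 270 minus 45 min response differed between nascent and total RNA, by the test of that difference itself, in 12 named genes (nascent minus total, log2). It was above 0 in Cd72 (3.33), H2-T24, a non-classical MHC class I gene (2.24), Ttc30b (2.2), Eid1 (2.15), Tifab (2.13) and Gatm (2.07). It was below 0 in Ccl12 (-3.55), Mrc1 (-3.5), Mt2, a metallothionein (-3.13), H2-Ea, an MHC class II gene (-3.03), Slc9a9, a sodium-proton exchanger (-2.92), and Tceal9 (-2.91). Ttc30b lay under background in total RNA at 270 min, with 4.15 and 4.81, against 6.12 and 7.27 at 45 min. Its nascent RNA was under background at both times, with 5.05 and 5.23 at 270 min and 4.94 and 5.38 at 45 min. Its response difference is therefore not read further. In total RNA Eid1 had 6.51 and 6.51 at 270 min, against 7.77 and 8.33 at 45 min, and Tifab 8.15 and 7.71, against 10.37 and 9.56. H2-Ea had 11.27 and 10.71 at 270 min and 11.51 and 11.4 at 45 min and was not called in total RNA, nor was Mt2, with 10.49 and 11.04 at 270 min and 9.65 and 10.79 at 45 min. Mt2 was called higher with dim genes left out (adjusted p = 0.0437), in the fits on 6 and on 4 total RNA arrays (0.00775 and 0.028) and without the 270 min array of experiment 2 (0.0324), and H2-Ea was called lower in the fit on 6 arrays (0.00521). Slc9a9 differed by -1.62 ± 0.18 in total RNA and by -4.54 in nascent RNA. The 12 response differences kept their call under every alternative in which the gene was tested. Ttc30b, a dim gene, was not in the fit with dim genes left out.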

How the results depend on the processing

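No result reversed. The total RNA counts of 1711 higher and 2884 lower genes were 1324 and 2302 with no replicate block, 1824 and 2470 after quantile scaling, 2265 and 3839 in the fit on 6 total RNA arrays, and ranged from 1115 to 2000 and from 1710 to 2608 with 1 array left out. Of the calls 37.2% were higher, and 42.5% after quantile scaling, which moved the median of all genes to 0.02. The response counts of 825 and 677 were 281 and 358 with no replicate block; the higher count was 547 after quantile scaling, and with 1 culture left out they ranged from 157 to 1271 and from 295 to 1239, so these counts are uncertain. Of 132 named genes 109 kept their side of the threshold under every alternative in which they were tested. Among the gene-by-alternative values 48 lost and 7 gained a call. Of 66 list counts 30 stayed within 1.5 times. Background signal limits dim genes: 386 called genes lay under it at both times. With 2 arrays a group precision is limited.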
